A study of Mus musculus with 8 samples.

Results

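The genes described here encode the adrenomedullin receptor and its ligand: Calcrl, the calcitonin receptor-like receptor; Ramp1, Ramp2 and Ramp3, its accessory proteins; and Adm, adrenomedullin. They were chosen by symbol, with it already known that Calcrl and Ramp2 were both lower after Norrin in these libraries. Of the 5 symbols, 4 were among the 15452 named genes of the deposited table, and all 4 had enough counts to be tested among 13666 genes. Ramp1 was not analysed here. The cells were bEnd.3, an immortalised mouse brain endothelial line. The 4 Norrin cultures received recombinant Norrin, a ligand of the receptor Frizzled-4, at 200 ng/ml from 24 h after seeding and were harvested 24 h later. The 4 control cultures received the vehicle, PBS with 0.1% BSA, by the study's design text, although one label calls them untreated. All 8 were unmodified cells of 1 line in serum-containing medium, and nothing in the labels says how the cultures of a group were separated, so errors measure the spread between these cultures, which may be technical.

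CALCRL is a class B G protein-coupled receptor that reaches the cell surface together with a receptor activity-modifying protein, or RAMP. The RAMP sets which peptide it binds: with RAMP2 or RAMP3 it is a receptor for adrenomedullin, and with RAMP1 for calcitonin gene-related peptide. In endothelium the receptor couples to Gs and raises cyclic AMP, and in mice the loss of Adm, Calcrl or Ramp2 disturbs blood and lymphatic vessel development.

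The promoters of Calcrl and of Ramp3 are shown because Calcrl was among the genes lower after Norrin and Ramp3, which encodes an alternative partner, was not. Each window runs from 250 bases before to 50 bases after the gene's start in the RefSeq table of the GRCm38.p6 assembly, which had entries for 4 of the 5 genes. The gene without an entry was Ramp2, so its promoter was not searched. The genome build behind the counts is not stated in the sources at hand. The Calcrl window is chr2:84425217-84425516 on the minus strand and the Ramp3 window chr11:6658283-6658582 on the plus strand, and capitals mark the motif matches described next.
Calcrl promoter: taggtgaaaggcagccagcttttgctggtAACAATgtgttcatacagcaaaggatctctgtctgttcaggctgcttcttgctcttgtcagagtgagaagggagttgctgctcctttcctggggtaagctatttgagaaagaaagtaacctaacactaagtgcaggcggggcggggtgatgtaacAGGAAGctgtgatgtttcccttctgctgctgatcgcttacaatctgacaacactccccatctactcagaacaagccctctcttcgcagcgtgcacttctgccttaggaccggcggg
Ramp3 promoter: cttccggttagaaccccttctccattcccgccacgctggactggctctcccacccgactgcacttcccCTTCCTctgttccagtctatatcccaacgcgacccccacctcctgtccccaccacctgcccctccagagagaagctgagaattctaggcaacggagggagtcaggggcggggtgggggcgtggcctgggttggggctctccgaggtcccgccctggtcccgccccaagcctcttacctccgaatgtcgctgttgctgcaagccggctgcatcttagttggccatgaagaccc

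The motifs searched, on both strands, were AGGAAG for ETS factors, AACAAT for SOX factors, AGATAA for GATA factors, ACGTG for hypoxia-inducible factors and CTTTGAT for TCF/LEF factors, which act downstream of beta-catenin. The Calcrl window held 1 AGGAAG, starting at position -66 from the gene's start, and 1 AACAAT, starting at position -221. The Ramp3 window held 1 AGGAAG on the minus strand, printed there as CTTCCT, whose leftmost base lies at position -182, and none of the other motifs. Neither window held CTTTGAT or ACGTG. Of 32851 promoter windows of the same length, 35.4% held AGGAAG, 10.7% AACAAT, 11.2% AGATAA, 19.6% ACGTG and 3.73% CTTTGAT. The Adm window held a match to none of the motifs. These matches describe letters in a short window and were not tested against the counts. G and C made up 50.7% of the Calcrl window and 63.7% of the Ramp3 window, around a median of 52.7% over all windows.

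Levels scaled for gene length are given by the RPKM values that the authors' deposited table holds once per group. Ranks and folds between genes depend on the length the authors used for each gene, which was not examined here. Ramp2 was the most abundant of the set, at 755 RPKM under Norrin and 939 RPKM under vehicle in the authors' deposited table. Calcrl followed at 250 RPKM under Norrin and 322 RPKM under vehicle, again from the authors' deposited table. The accessory gene Ramp3 was far lower, at 34.5 RPKM under Norrin and 35.4 RPKM under vehicle in the authors' deposited table, and the ligand gene Adm was at 2.91 RPKM under Norrin and 3.78 RPKM under vehicle. Under vehicle, Ramp2 ranked 83rd and Calcrl 295th of 15452 genes by the deposited RPKM, Ramp3 3670th and Adm 10284th. Neighbours in this order were 2.92-fold apart for Ramp2 over Calcrl, 9.09-fold for Calcrl over Ramp3 and 9.38-fold for Ramp3 over Adm. When each library's level was placed on the deposited RPKM scale of its group, the vehicle libraries spanned 844 to 998 for Ramp2, 304 to 336 for Calcrl, 30.9 to 38.3 for Ramp3 and at most 5.87 for Adm, so no library ranges of neighbouring genes overlapped. The ratio of Ramp2 to Ramp3 RPKM in the authors' deposited table was 21.9 under Norrin and 26.5 under vehicle.

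Changes were followed in CPM, a gene's count scaled to a common library total, which compares libraries and not genes. Calcrl stood at 349, 357, 352 and 337 CPM in Norrin replicates 1 to 4, against 436, 465, 468 and 424 CPM in vehicle replicates 1 to 4. All 4 Norrin libraries lay below the lowest vehicle library, and Norrin replicate 4 was the lowest of all. The means were 349 ± 8.45 CPM under Norrin and 448 ± 21.8 CPM under vehicle (SD, n = 4 each), so the Norrin level was 77.9% of the vehicle level. The fitted log2 fold change, Norrin over vehicle, was -0.36 ± 0.04 (SE).

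Ramp2, whose product carries CALCRL to the surface as an adrenomedullin receptor, stood at 404, 445, 424 and 455 CPM in Norrin replicates 1 to 4, against 570, 553, 540 and 482 CPM in vehicle replicates 1 to 4. The groups did not overlap here either, but the gap between Norrin replicate 4, the highest treated library, and vehicle replicate 4, the lowest control, was small. The means were 432 ± 22.7 CPM under Norrin and 536 ± 38.3 CPM under vehicle (SD, n = 4 each), 80.6% of the vehicle level, and the log2 fold change was -0.31 ± 0.05 (SE). Vehicle replicate 4 was the lowest control for both genes. Among the Norrin libraries the order was not shared, since replicate 4 had the least Calcrl and the most Ramp2.

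Ramp3, the gene of the other adrenomedullin-binding accessory protein, stood at 16.9, 12.3, 14.3 and 18.5 CPM in Norrin replicates 1 to 4, against 15.3, 17.0, 13.7 and 16.8 CPM in vehicle replicates 1 to 4. The Norrin libraries held both the lowest and the highest value, and the groups overlapped. The means were 15.5 ± 2.74 CPM under Norrin and 15.7 ± 1.52 CPM under vehicle (SD, n = 4 each), with a log2 fold change of -0.01 and a 95% interval of -0.30 to 0.27. The difference between the change of Ramp3 and those of Calcrl and Ramp2 was not tested.

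Adm, encoding the secreted peptide itself, had few reads and varied widely between libraries. It had 30, 7, 33 and 37 reads in Norrin replicates 1 to 4, against 21, 38, 55 and 15 reads in vehicle replicates 1 to 4. Norrin replicate 2 was the lowest library and vehicle replicate 3 the highest, and the groups overlapped. The means were 1.92 ± 0.983 CPM under Norrin and 2.28 ± 1.04 CPM under vehicle (SD, n = 4 each), with a log2 fold change of -0.26 and a 95% interval of -1.09 to 0.57. The fold in the authors' deposited table, Norrin over vehicle, was 0.769 for Adm, 0.776 for Calcrl, 0.804 for Ramp2 and 0.974 for Ramp3.

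**Figure D1:**
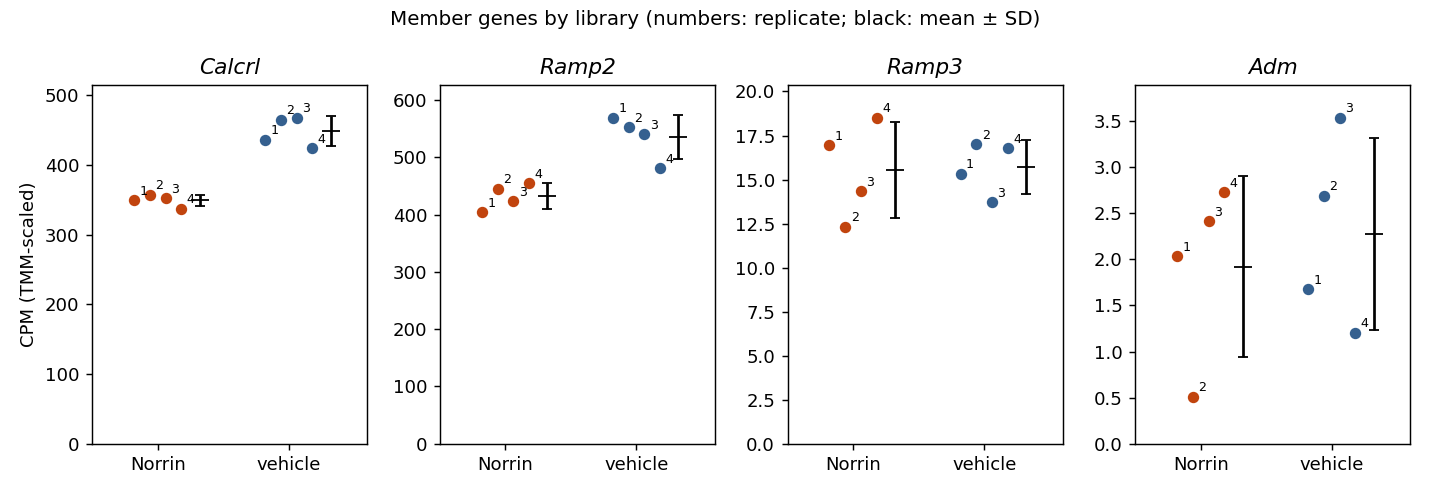
Level of each gene in CPM (y axis, each panel from 0 on its own scale) in the 4 Norrin and 4 vehicle libraries, with replicate numbers beside the points and the mean ± SD in black. The Norrin libraries of Calcrl (337 to 357 CPM) and of Ramp2 (404 to 455 CPM) sit below all vehicle libraries, while those of Ramp3 and Adm overlap with the vehicle libraries.

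By edgeR's quasi-likelihood test with Benjamini-Hochberg adjustment at 0.05, 2 of the 4 genes (Calcrl and Ramp2) were among those called lower, against 0.966% of all 13666 tested genes, and 2.17% were called in either direction. Both also had all Norrin libraries below all vehicle libraries, as had 3.58% of tested genes. The genes were picked for these values, so the counts describe the choice and no p-value is given for them. The median log2 fold change over all tested genes was 0.00.

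Libraries of a group varied more than counting error alone would give for each of the 4 genes. Total counts ran from 13445380 to 14905863 per Norrin library and from 12463942 to 15220576 per vehicle library. Counting error alone would give a coefficient of variation of 1.43% for Calcrl under Norrin and 1.28% under vehicle, and the libraries varied by 2.42% under Norrin and 4.86% under vehicle. Ramp2 had lower counting values, 1.29% under Norrin and 1.17% under vehicle, and its libraries varied more, by 5.25% under Norrin and 7.14% under vehicle. For Ramp3, counting error alone would give 6.80% under Norrin and 6.84% under vehicle, where the libraries varied by 17.6% under Norrin and 9.70% under vehicle. For Adm, counting error alone would give 19.3% under Norrin and 17.6% under vehicle, where the libraries varied by 51.2% under Norrin and 45.9% under vehicle. These figures cover counting error only, since reads from amplified libraries are not independent molecules.

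Among abundant genes the changes of Calcrl and Ramp2 stood at the lower edge. Of 472 tested genes with at least 300 CPM on average over the 8 libraries, 0 had a lower log2 fold change than Calcrl and 4 had a lower one than Ramp2, and 5.72% of the 472 were called lower. Over all 13666 tested genes, 640 had a lower log2 fold change than Calcrl and 844 a lower one than Ramp2. This placing is a description of genes that were chosen for their fall. The limit of 300 CPM lies below the mean level of both genes, and no other limit was tried.

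**Figure D2:**
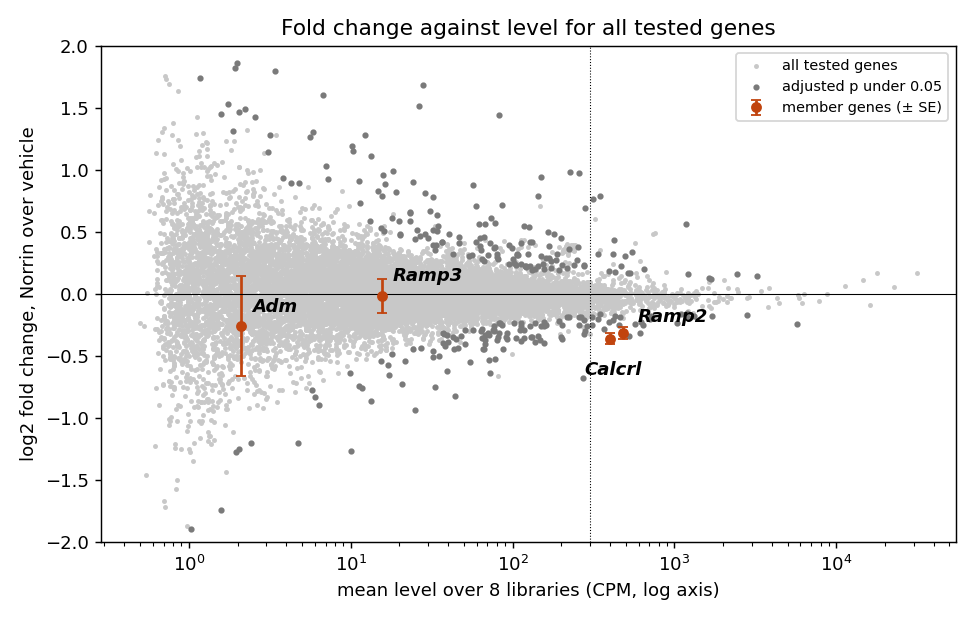
Log2 fold change, Norrin over vehicle (y axis), against the mean level over 8 libraries in CPM (log x axis) for 13666 tested genes, with called genes in dark grey, the 4 described genes in orange (± SE) and 5 genes beyond ±2 on the y axis not drawn. Right of the dotted line at 300 CPM, Calcrl is the lowest point, and Ramp3 and Adm lie within the cloud left of it. Over all tested genes, 640 had a lower log2 fold change than Calcrl, 844 than Ramp2 and 1102 than Adm.

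Read ratios within a library do not depend on how libraries are scaled. Norrin libraries held 1.16, 1.25, 1.20 and 1.35 Ramp2 reads per Calcrl read in replicates 1 to 4, against 1.31, 1.19, 1.15 and 1.14 in vehicle replicates 1 to 4. The groups overlapped, with means of 1.24 ± 0.0814 under Norrin and 1.20 ± 0.0757 under vehicle (SD, n = 4 each), and the ratio was highest in Norrin replicate 4. Ramp3 had 3.60 ± 0.659 reads per 100 Ramp2 reads under Norrin and 2.95 ± 0.424 under vehicle, and 4.47 ± 0.890 reads per 100 Calcrl reads under Norrin and 3.52 ± 0.434 under vehicle (SD, n = 4 each). Both of these ratios overlapped between the groups, with Norrin replicate 2 at 2.77 Ramp3 reads per 100 Ramp2 reads and vehicle replicate 4 at 3.49.

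**Figure D3:**
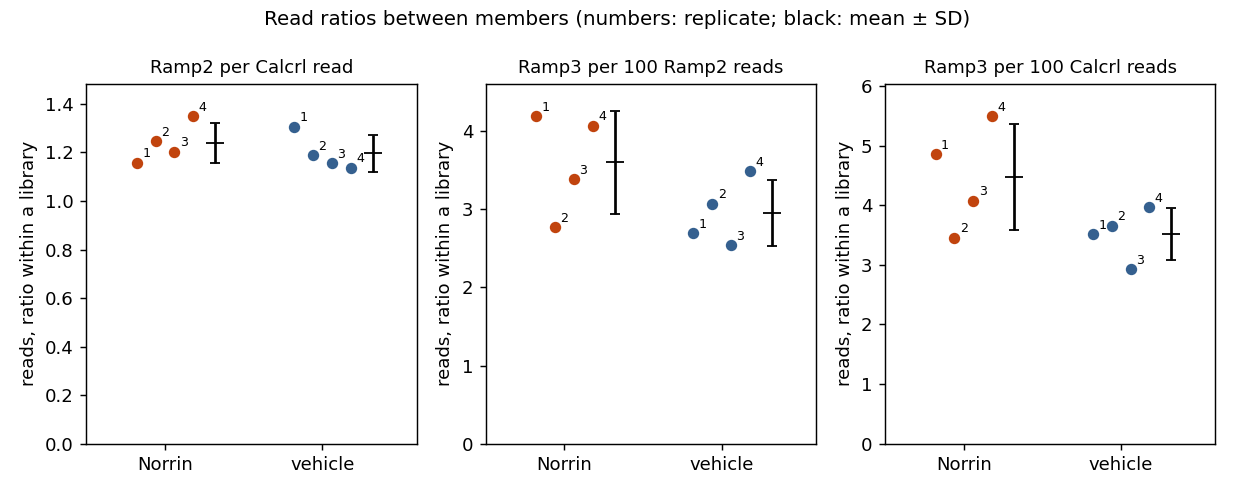
Ratios of reads between genes within each library (y axes from 0) for 4 Norrin and 4 vehicle libraries, with replicate numbers beside the points and the mean ± SD in black. The Ramp2 to Calcrl ratio lies between 1.14 and 1.35 in all 8 libraries, and the Norrin and vehicle libraries overlap in each panel.

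In GENCODE release M21, Ramp2 overlaps Vps25, a subunit gene of the endosomal sorting complex, on the same strand, and the genes share 1103 of the 3301 exonic bases annotated to Ramp2, or 33.4%. How reads in the shared bases were divided is not known from the labels or the table. No value here gives the share of Ramp2 reads that fall in the shared bases, so the Ramp2 count is uncertain. The 3301 bases pool the exons of all annotated Ramp2 transcripts, and the bases behind the deposited count may differ. Vps25, named for this overlap, was at 36.6 ± 1.92 CPM under Norrin and 31.8 ± 4.20 CPM under vehicle (SD, n = 4 each; log2 fold change 0.20 ± 0.10 SE, edgeR adjusted p = 0.433). Its CPM was far below that of Ramp2 in both groups, but CPM takes no account of gene length. Both counts also depend on how the shared reads were divided. Ramp3 shares 101 exonic bases, 7.32% of its own, with the pseudogene Gm11978 on the opposite strand. Adm lies opposite the antisense gene Gm28863 and shares 0 exonic bases with it. Calcrl overlapped no other gene in that annotation.

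Other genes were ranked by how closely their profile over the 8 libraries followed Calcrl or Ramp2, measured as the root mean square difference in log2 CPM after centring each gene on its own mean. Among 8576 genes with at least 10 CPM, the 5 nearest to Calcrl were Gpc6, Elmo1, Acvr1, Il4ra and Cd200, at differences of 0.04, 0.05, 0.05, 0.06 and 0.06. The heparan sulphate proteoglycan gene Gpc6 was at 35.0 ± 1.31 CPM under Norrin and 43.9 ± 3.74 CPM under vehicle. Cd200, an immunoglobulin-family surface protein gene, was at 114 ± 8.76 CPM under Norrin and 145 ± 5.05 CPM under vehicle (SD, n = 4 each). The 5 nearest to Ramp2 were Adarb1, Sdc1, Sh2b3, Fam101b and Tns2, at differences of 0.04, 0.04, 0.05, 0.05 and 0.06. Ramp2 itself came 18th in nearness to Calcrl, at 0.08, and Calcrl 30th in nearness to Ramp2. Both genes were known to be lower after Norrin in these same libraries when chosen. Their nearness therefore describes that choice and is no separate test of a shared profile. Ramp3 came 6667th in nearness to Calcrl, at 0.27. The measure makes no allowance for counting error, which was larger for Ramp3 than for Calcrl. It was 6.80% under Norrin and 6.84% under vehicle for Ramp3, against 1.43% and 1.28% for Calcrl. The part of counting error in the Ramp3 rank was not tested. The log2 fold changes of the 10 genes listed as nearest ran from -0.39 to -0.25, which the measure of nearness favours, so they are not tested here.

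The remaining genes of the calcitonin peptide family and of adrenomedullin handling were few in the table. Of 12 listed, the table held 7, and 6 had enough counts for a test. EdgeR called 0 of them, where 1.2% of all tested genes were called higher and 0.966% lower. At an unadjusted p under 0.05 there was 1, and DESeq2 and limma-voom called 0. The median log2 fold change of the 6 was -0.08. Ackr3, encoding an atypical receptor that takes up adrenomedullin, was at 20.8 ± 2.68 CPM under Norrin and 26.7 ± 1.72 CPM under vehicle (SD, n = 4 each), with a log2 fold change of -0.36 ± 0.11 (SE, edgeR adjusted p = 0.100); it was singled out after its values were seen. Without Norrin replicate 4, Ackr3 was called lower, at -0.43 ± 0.12 (adjusted p = 0.0392). Pam, encoding the enzyme that amidates adrenomedullin and other peptides, was at 198 ± 12.6 CPM under Norrin and 206 ± 3.99 CPM under vehicle (adjusted p = 0.786). Ece1, encoding endothelin-converting enzyme, was at 532 ± 31.1 CPM under Norrin and 508 ± 9.03 CPM under vehicle (adjusted p = 0.634). A second list held 15 class B receptors and other partners of RAMPs. The table held 4 of these, and only the estrogen-binding receptor gene Gper1 had enough counts for a test, at 1.67 ± 0.482 CPM under Norrin and 1.01 ± 0.465 CPM under vehicle (edgeR adjusted p = 0.564, not called by DESeq2 or limma-voom and above 0.05 unadjusted).

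Genes on the path from the receptor to cyclic AMP were listed next. Of 45 listed genes for Gs, adenylyl cyclases, protein kinase A, phosphodiesterases and CREB factors, 37 were tested. EdgeR called 0, as did DESeq2 and limma-voom, which is near the 2.17% called among all genes. The median log2 fold change was -0.03, and 22 of 37 lay below 0. The 3 genes at an unadjusted p under 0.05 were all higher under Norrin: Pkig, a protein kinase A inhibitor gene (0.36 ± 0.13 SE, edgeR adjusted p = 0.164), Crem, a cyclic AMP-responsive factor gene (0.33 ± 0.12, 0.177), and Prkar2b. They were singled out after their values were seen. Gnas, the gene of the Gs alpha subunit, was at 767 ± 20.3 CPM under Norrin and 768 ± 17.0 CPM under vehicle (SD, n = 4 each), with a 95% interval of the log2 fold change from -0.08 to 0.07. Akap12, encoding an anchor of protein kinase A, was at 483 ± 40.8 CPM under Norrin and 474 ± 3.72 CPM under vehicle, with an interval from -0.07 to 0.12. Without Norrin replicate 4, 1 gene of the list was called: Prkar2b, a regulatory subunit gene of protein kinase A, was higher by 0.25 ± 0.06 on the log2 scale (edgeR adjusted p = 0.00709), against 0.17 ± 0.07 (adjusted p = 0.309) with all 8 libraries.

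Another list held genes that desensitise and move such receptors. Of 16 listed, 15 were tested. EdgeR called 0, DESeq2 and limma-voom likewise 0, again near the 2.17% of all genes, with 3 at an unadjusted p under 0.05 and a median log2 fold change of -0.01. The 3 were Arrb1, Slc9a3r2 and Vps35. Arrb1 was at 164 ± 6.78 CPM under Norrin and 183 ± 3.38 CPM under vehicle (log2 fold change -0.16 ± 0.05 SE, edgeR adjusted p = 0.132). For Arrb1, Slc9a3r2 and Rab4a of this list, all Norrin libraries lay below all vehicle libraries, as for 3.58% of all tested genes. Arrb1 and Rab4a were singled out after their values were seen. Slc9a3r2, a scaffold gene related to the one whose product binds RAMP3, was at 232 ± 8.69 CPM under Norrin and 253 ± 6.77 CPM under vehicle (log2 fold change -0.12 ± 0.05 SE, adjusted p = 0.236 by edgeR). Vps35, a retromer gene for recycling from endosomes, was at 235 ± 6.57 CPM under Norrin and 218 ± 9.62 CPM under vehicle (log2 fold change 0.11 ± 0.05 SE, adjusted p = 0.37 by edgeR).

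Among other vasoactive systems, 3 of 14 tested genes fell, 0 rose and 11 did not pass, where 0.966% of all tested genes were called lower and 1.2% higher. The median log2 fold change of the list was -0.14, and 6 of the 14 had an unadjusted edgeR p under 0.05. The list was chosen with earlier results of these data known, so its counts are no separate test. Npr1, the receptor gene for atrial natriuretic peptide, was at 299, 279, 279 and 275 CPM in Norrin replicates 1 to 4, against 327, 341, 337 and 340 CPM in vehicle replicates 1 to 4. All Norrin libraries lay below all vehicle libraries, and Npr1 fell by 0.25 on the log2 scale (SE 0.04, edgeR adjusted p = 0.00082). Ace, encoding angiotensin-converting enzyme, fell to 60.2 ± 5.03 CPM under Norrin, against 75.5 ± 5.74 CPM under vehicle (SD, n = 4 each; log2 fold change -0.33 ± 0.07 SE, adjusted p = 0.0114 by edgeR), also without overlap. Ptgs1, encoding cyclooxygenase-1, fell to 4.36 ± 1.43 CPM under Norrin, against 7.74 ± 1.29 CPM under vehicle (log2 fold change -0.83 ± 0.22 SE, adjusted p = 0.0438 by edgeR), with Norrin replicate 4 inside the vehicle range. The Ptgs1 call was lost in 7 of 13 alternative fits, limma-voom among them (adjusted p 0.00569 to 0.192 over the 13). Without Norrin replicate 1 or vehicle replicate 2, Npr1 alone of the list was called. Nos3, the endothelial nitric oxide synthase gene, was at 1967 ± 119 CPM under Norrin and 2022 ± 39.1 CPM under vehicle (adjusted p = 0.776). Ednrb, an endothelin receptor gene, was at 81.6, 68.9, 66.9 and 113 CPM in Norrin replicates 1 to 4, against 114, 103, 112 and 131 CPM in vehicle replicates 1 to 4. Norrin replicate 4 stood within the vehicle range and the other Norrin libraries below it. Ednrb was at a log2 fold change of -0.48 ± 0.18 (SE, edgeR adjusted p = 0.396) with all libraries and of -0.67 ± 0.08 (2.34e-06) without Norrin replicate 4. With all libraries limma-voom did call Ednrb lower, at -0.50 ± 0.12 (SE, limma-voom adjusted p = 0.0317). Npr3, a natriuretic peptide clearance receptor gene singled out after its values were seen, went the other way, at 2.68 ± 0.610 CPM under Norrin and 1.11 ± 0.504 CPM under vehicle (log2 fold change 1.24 ± 0.36 SE, edgeR adjusted p = 0.0738), with all Norrin libraries above all vehicle libraries. Edn1, an endothelin gene, was also higher, at a log2 fold change of 0.36 ± 0.14 (SE, edgeR adjusted p = 0.234). Its groups overlapped, and Edn1 too was singled out after its values were seen. The log2 fold changes without Norrin replicate 4 were -0.34 ± 0.05 for Calcrl and -0.34 ± 0.05 for Ramp2.

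Adm is a textbook hypoxia-inducible gene, so hypoxia-responsive genes were read beside it. Of 17 tested, 2 fell, 0 rose and 15 did not pass, where 0.966% of all tested genes were called lower and 1.2% higher. The median log2 fold change of the list was -0.04, and 4 of the 17 had an unadjusted edgeR p under 0.05. This list too was chosen with earlier results of these data known, so its counts are no separate test. Egln3, encoding a prolyl hydroxylase that marks hypoxia-inducible factors for breakdown, fell to 81.3 ± 8.07 CPM under Norrin, against 105 ± 3.62 CPM under vehicle (log2 fold change -0.37 ± 0.07 SE, edgeR adjusted p = 0.000993). Pfkfb3, a glycolytic regulator gene, fell to 29.0 ± 1.75 CPM under Norrin, against 40.9 ± 3.60 CPM under vehicle (log2 fold change -0.50 ± 0.09 SE, edgeR adjusted p = 0.00133). The factor genes Hif1a and Epas1 did not pass, at log2 fold changes of 0.07 ± 0.04 and 0.01 ± 0.10 (SE).

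**Figure D4:**
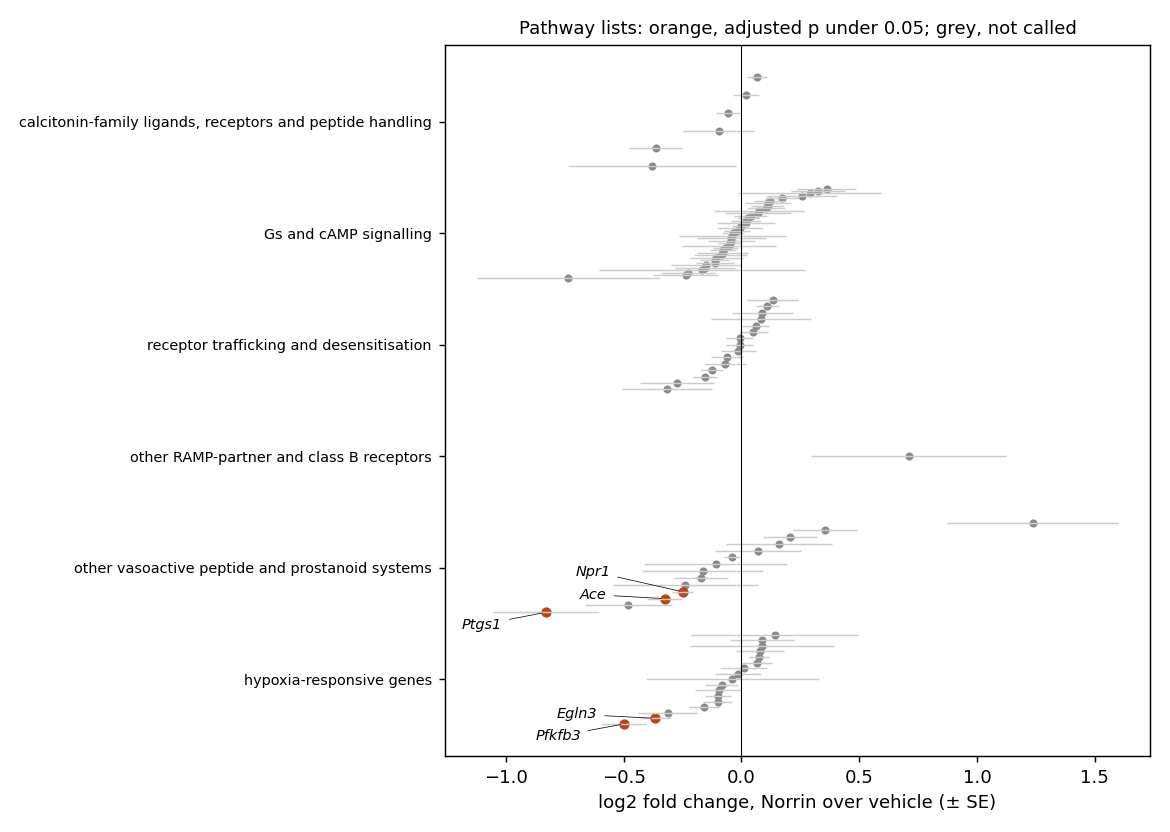
Log2 fold change, Norrin over vehicle (x axis, ± SE), of every tested gene in 6 lists around the receptor, ordered within each list, with called genes in orange and the others in grey. The 5 called genes (Npr1, Ace, Ptgs1, Egln3 and Pfkfb3) all lie below 0, and the cyclic AMP and trafficking lists hold none.

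The treatment was visible in Axin2, a beta-catenin target, at 6.72 ± 1.04 CPM under Norrin and 0.36 ± 0.214 CPM under vehicle (SD, n = 4 each). In the vehicle libraries 3 reads correspond to 0.193 to 0.241 CPM, so Axin2 had few reads there and the size of its rise is uncertain. All 10 listed endothelial markers were tested. Their summed level was 7519 to 7737 CPM in Norrin libraries and 7754 to 7978 CPM in vehicle libraries, which did not overlap. Esam was called higher and Egfl7 lower by edgeR, against 2.17% called of all genes, 5 of the 10 markers had an unadjusted p under 0.05, and the median log2 fold change was -0.04. Of those 5, Pecam1, at -0.10 ± 0.03 (SE, edgeR adjusted p = 0.132), and Kdr, at -0.11 ± 0.03 (0.104), also had all Norrin libraries below all vehicle libraries. Markers of mural cells summed to 5.18 to 6.79 CPM under Norrin and 5.19 to 9.01 CPM under vehicle, with 4 of 8 in the table, and fibroblast markers to 7.60 to 9.70 CPM under Norrin and 5.03 to 8.23 CPM under vehicle, with 3 of 7 in the table. The lymphatic markers Flt4 and Lyve1, 2 of 6 listed, summed to 222 to 252 CPM under Norrin and 233 to 243 CPM under vehicle, and 0 of these 3 lists' tested markers were called by edgeR (1, Lyve1, at an unadjusted p under 0.05). The part of cell composition in the Calcrl and Ramp2 values was not tested, and in bulk RNA fewer cells of a type and less RNA per cell cannot be told apart.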

How the data were processed

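RNA was measured in 4 Norrin and 4 vehicle cultures by ribosome-depleted, paired-end RNA-seq, per the labels' protocols. The authors deposited expected counts per gene and library without normalisation, 1 RPKM value per group, and a fold, the ratio of the authors' RPKM values. The submitters' processing notes name STAR and no version. The build, annotation, counting tool and use of strand are not stated in the labels or the table. All counts were rounded to whole numbers, and 1 row without a gene name was left out. The lowest vehicle RPKM was 0.1, while 439 genes had a Norrin RPKM below 0.1, so genes silent under vehicle may be missing.

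Counts were fitted over all genes with edgeR 4.0.16 in R 4.3.3 (filterByExpr, TMM, robust quasi-likelihood, two-sided) and adjusted over 13666 genes at 0.05. The fit was tested on simulated data with known changes, where all genes had the same dispersion between libraries. It recovered 6% of 1.2-fold, 74% of 1.5-fold, 92% of 2-fold and 96% of 4-fold changes, with 4 false among 138 calls. A gene that was not called may therefore have changed by a small fold. DESeq2 1.42.0 and limma 3.58.1 were alternatives. The members and lists were chosen with earlier results of these data known. Named genes were the members, called genes of each list with up to 2 abundant others, and the 5 nearest profiles to Calcrl and to Ramp2. Of 139 list entries 97 matched the table, Grk2 as Adrbk1. No libraries of a group were duplicates, with a chi-square of 5.51 to 14.6 per degree of freedom between them. The labels name no batch.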

Additional observations from a re-analysis of the deposited data

Results flagged for a closer look

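The scan covered 31 genes, those named by the rule given above and Axin2, in 2 groups of 4 libraries each. Of 62 groups, 3 held 1 library far from the other 3, where chance flags about 1 in 20. Genes singled out after their values were seen, Vps25 and the cell markers were not scanned. Akap12 was at 544 CPM in Norrin replicate 4, against 458 to 472 CPM in the other Norrin libraries. Nos3 was at 2144 CPM in Norrin replicate 4, against 1889 to 1923 CPM in the other Norrin libraries. Pfkfb3 was at 35.5 CPM in vehicle replicate 1, against 42.3 to 43.2 CPM in the other vehicle libraries. No group of Calcrl, Ramp2, Ramp3 or Adm held such a library.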

How the results depend on the processing

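Over 13 alternatives (5 other fits and 8 with 1 library left out), the log2 fold change of Calcrl ran from -0.39 to -0.34. That of Ramp2 ran from -0.36 to -0.28, and both genes were called lower in each. Both were chosen for being lower in these same libraries, so the repeated calls describe that choice and are no separate test. Ramp3 ran from -0.11 to 0.08 and Adm from -0.47 to 0.06, without a call. All genes called numbered 206 to 452 with 1 library left out (452 without Norrin replicate 4) against 296 with all, and 293 with DESeq2 size factors, 297 without the low-count filter, 404 by DESeq2 and 243 by limma-voom. With 1 library left out, the vasoactive list held 1 to 4 called genes, the calcitonin-family list 0 to 1 and the Gs list 0 to 1. Ptgs1 lost its call in 7 of 13 alternatives (adjusted p 0.00569 to 0.192) and Ace in 2 (0.00302 to 0.0803). The cause of these losses was not tested. Same-numbered libraries shared little, with correlations of -0.02 to 0.07 between their deviations from the group means. With the replicate number as a block, 402 genes were called, 4 of the vasoactive list with Ednrb among them, and 2 of 4 Norrin libraries correlated best with the vehicle library of their own number. Adm had 7 to 55 reads per library, and no other depth was tried.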
